A study of Homo sapiens with 36 samples.

Results

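FLO1 cells with shAPE1#3 were compared with FLO1 cells with shAPE1#1 after both had been given acidic bile salts (ABS). These are 2 short hairpin RNAs against APE1, the protein of the APEX1 gene. The comparison takes 6 of the 36 libraries of the series, 3 from each line, and covers all 16868 genes that passed the filter on low counts. FLO1 is a human cell line from an esophageal adenocarcinoma. Each shRNA was stably transduced, the cells were grown in DMEM, and polyA RNA was sequenced. ABS was 200 µM bile salts at pH 4 for 20 min, and cells were collected after 6 h of recovery. The same lines without ABS, the FLO1 line with shControl, and the second cell line OE33 with the same labelled shRNAs serve for reference. The labels call the 3 libraries of a group independent biological replicates, and do not state whether a transduced line is a pool or a clone. Each shRNA stands for 1 transduced line, so an effect of the hairpin and a difference between the transduced lines cannot be told apart.

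APE1 is the main endonuclease of base excision repair, which cuts DNA at sites that have lost a base. It also reduces cysteines of transcription factors, among them AP-1, NF-kB, HIF1 and p53. Hairpins against the same gene share that target and can differ in how far they lower it and in which other transcripts they affect.

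The 6 libraries held 26.1 to 36.4 M counts (M, 1e6 counts) and between 23570 and 24862 detected genes. Mitochondrial genes took 3.31 to 3.83% of the counts. One column, that of shAPE1#3 replicate 3 after ABS, carries a longer name and a number out of sequence, and results are also given without it. Of 10 epithelial markers, 6 reached 1 CPM (counts per 1e6 counts) in FLO1, led by KRT8 and KRT18, while EPCAM, CLDN7, ESRP1 and ELF3 lay below 1 CPM in both groups. The summed level of these markers was 4270 to 4683 CPM with shAPE1#1 and 2786 to 2841 CPM with shAPE1#3. Fibroblast markers summed to 24.7 to 27.5 CPM with shAPE1#1 and 22.8 to 30.5 CPM with shAPE1#3, and 1 of 10 reached 1 CPM. Immune markers summed to 6.44 to 7.97 and 8.65 to 11.9 CPM, with 2 of 11 at 1 CPM or more; ITGAM (2.71 against 5.40 CPM, adjusted p = 8.2e-05) and LYZ were called higher, LYZ with its call lost in 5 of 6 fits without 1 library, and PTPRC was at 0. CD68, the other immune marker at 1 CPM or more, went the other way (3.65 against 2.63 CPM) and was not called. With DESeq2, in a fit to the compared groups and with the GC correction described further on, 1 immune marker was called lower. Endothelial markers summed to 6.22 to 6.67 and 7.85 to 8.77 CPM, with 2 of 10 at 1 CPM or more. The part of these marker levels in the results was not tested.

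After ABS, 3757 of 16868 genes differed between both lines at an adjusted p under 0.05, which is 22.3% of the genes tested. Of these, 1904 were higher with shAPE1#3 (11.3%) and 1853 were lower (11%). A change of at least 2-fold was found in 534 of them (3.17%), of which 215 were higher and 319 lower. An unadjusted p under 0.05 was found for 5880 genes (34.9%). The libraries of both groups did not overlap in 7282 genes (43.2%), of which 4056 were higher (24%) and 3226 lower (19.1%). Without shAPE1#3 replicate 1 the number of differing genes was 2304, and without shAPE1#3 replicate 3 it was 2826. APEX1 itself (ENSG00000100823, chr14:20455191-20457772, GRCh38) stood at 27.9, 27.3 and 25.1 CPM with shAPE1#1 and at 32.2, 37.5 and 34.7 CPM with shAPE1#3. The shControl libraries after ABS were at 189, 175 and 202 CPM, so both lines were far below control and shAPE1#3 retained slightly more. The difference between the hairpins was 0.35 ± 0.08 (log2 fold change ± SE, n = 3 libraries each, adjusted p = 4.5e-03), and without ABS it was 0.55.

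**Figure D1:**
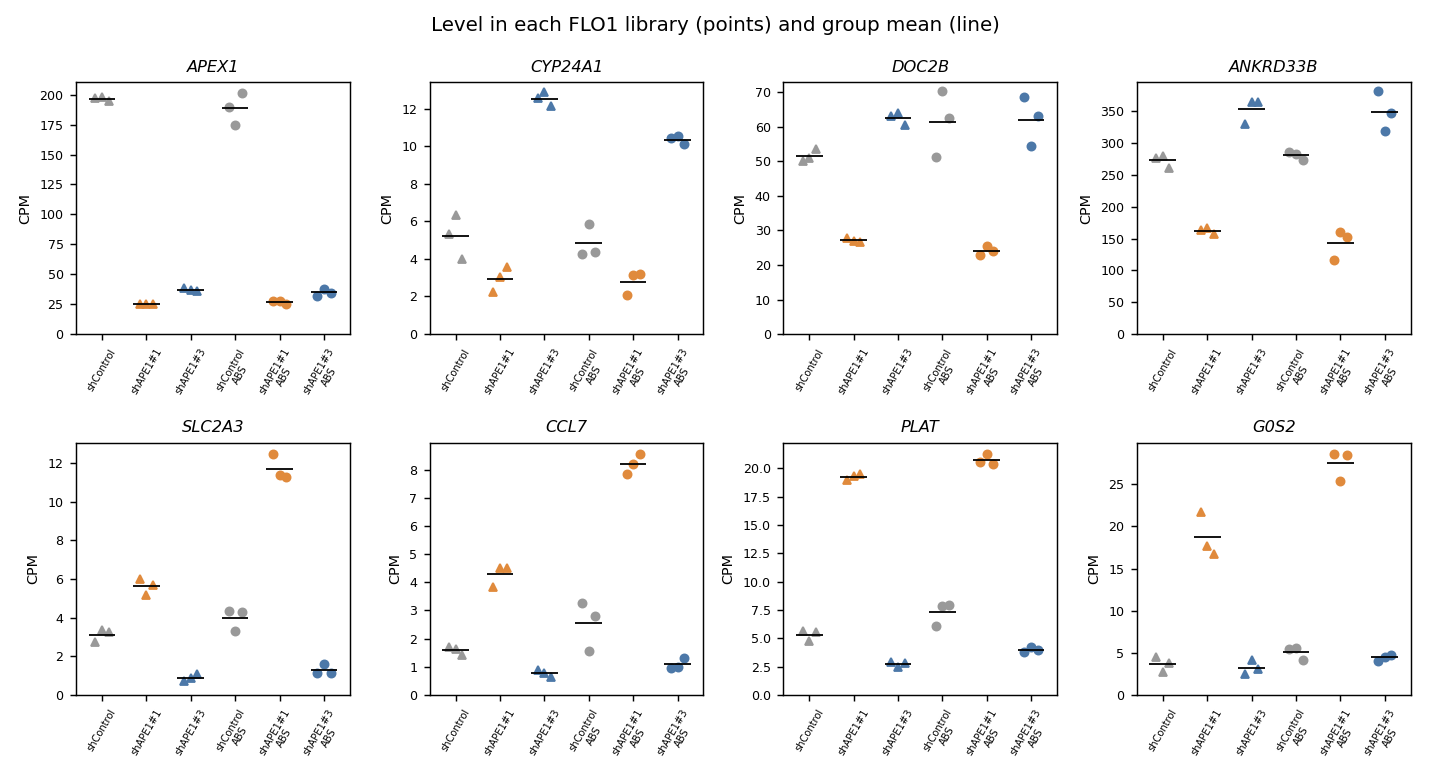
Level in CPM (y axis, from 0) of 8 genes in each of the 18 FLO1 libraries, by group on the x axis; triangles are unexposed, circles are after ABS, and lines are group means. APEX1 is low with both hairpins, while SLC2A3, CCL7, PLAT and G0S2 are high with shAPE1#1 and CYP24A1 is high with shAPE1#3, with and without ABS.

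The gene with the largest increase by the naming rule (called, mean log2 CPM of at least 1, libraries that do not overlap) was CYP24A1, the enzyme that inactivates vitamin D. It stood at 10.4, 10.5 and 10.1 CPM with shAPE1#3 and at 2.06, 3.14 and 3.17 CPM with shAPE1#1, a 3.62-fold difference (log2 1.86 ± 0.18, adjusted p = 2.8e-07). The shControl libraries lay between both, at 4.27, 5.84 and 4.38 CPM. CNTFR, a receptor subunit for ciliary neurotrophic factor, was at 5.44, 6.07 and 5.57 CPM against 1.96, 1.55 and 1.81 CPM, 3.14-fold higher. HSPA6, a strictly inducible member of the HSP70 family, was at 20.2, 25.3 and 24.9 CPM against 11.4, 4.95 and 6.87 CPM (log2 1.57 ± 0.25). Without ABS, HSPA6 was at 0.882 to 1.6 CPM in both lines and the difference did not pass the test (log2 0.25, adjusted p = 0.77). HSPA6 was not among the 4 genes that passed the direct test of a change with ABS, given further on. HSPA6 shares sequence with other HSP70 genes, so its counts are uncertain.

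The more abundant genes of this set were ANKRD33B, at 382, 319 and 348 CPM with shAPE1#3 against 116, 160 and 153 CPM, and DOC2B, a calcium sensor of vesicle release, at 68.6, 54.5 and 63.1 CPM against 22.8, 25.4 and 24.1 CPM. No library of one line reached the range of the other for either gene. JDP2, a bZIP repressor that dimerizes with JUN proteins, was higher by 1.33 ± 0.12 on the log2 scale, and the antisense gene AF111167.2, whose annotated end overlaps the start of JDP2, by 1.42. The strand setting of the counting is not given in the sources used here, so reads of that pair cannot be told apart where they overlap. HRK, a BH3-only activator of apoptosis, was higher by 1.35, LTB, which encodes lymphotoxin beta, by 1.46, and NKD2, an inhibitor of WNT signaling, by 1.27. DERL3, a channel component of ER-associated degradation, was higher by 1.24 ± 0.14 after ABS (adjusted p = 2.6e-06) and by 0.40 without ABS (adjusted p = 0.0895). In an edgeR fit to the compared groups alone, the difference without ABS was called (log2 0.40, adjusted p = 6.8e-03). The direct test of a change with ABS did not pass for DERL3. GRIN2B, SLC22A31, AMN1 and CCER2 completed the 15, with log2 changes of 1.27, 1.32, 1.29 and 1.24.

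Differences in the other direction were larger. SLC2A3, the glucose transporter GLUT3, was at 12.5, 11.4 and 11.3 CPM with shAPE1#1 and at 1.15, 1.57 and 1.13 CPM with shAPE1#3, a 9.28-fold difference (log2 -3.21 ± 0.16, adjusted p = 2.9e-11). The shControl libraries were at 4.34, 3.31 and 4.29 CPM, between both lines and apart from each. CCL7, a chemokine that attracts monocytes, was at 7.85, 8.20 and 8.56 CPM against 0.958, 0.975 and 1.32 CPM, 7.63-fold lower with shAPE1#3. ART5, an ADP-ribosyltransferase, was 7.31-fold lower. G0S2, an inhibitor of the triglyceride lipase ATGL, was at 28.6, 25.4 and 28.4 CPM against 4.06, 4.5 and 4.75 CPM, and the shControl libraries at 5.48, 5.52 and 4.16 CPM lay near shAPE1#3. PLAT, the tissue plasminogen activator, was at 20.5, 21.3 and 20.4 CPM against 3.79, 4.18 and 3.98 CPM (log2 -2.41 ± 0.12). For each of these genes every shAPE1#1 library lay above every shAPE1#3 library.

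Several of the remaining genes encode secreted or surface proteins. CX3CL1, the membrane-bound chemokine fractalkine, was lower by a log2 change of -2.04, STC1, the secreted hormone stanniocalcin-1, by -1.97, and CPA4, a secreted carboxypeptidase, by -2.20. ADAMTS14, a procollagen peptidase, changed by -1.96 and KCNK3, an acid-sensitive potassium channel, by -1.96 as well. RNF43, a ubiquitin ligase that removes WNT receptors, was at 5.25, 5.24 and 4.66 CPM against 1.11, 1.10 and 1.65 CPM. NUPR1, a stress-induced chromatin protein, was at 25.0, 21.2 and 21.5 CPM against 5.44, 6.54 and 5.43 CPM. MAP7, which binds microtubules, changed by -2.55, S100A16, a calcium-binding protein, by -2.35, and STON2, an adaptor of endocytosis, by -2.16. The largest adjusted p among these 15 genes was 4.5e-05, and all 15 were called in the same direction without ABS.

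The position of the shControl line after ABS was used as a description of which hairpin stood apart. Its mean lay nearer to shAPE1#3 than to shAPE1#1 on the log2 scale in 12 of the 15 highest genes and in 14 of the 15 lowest genes. Over all calls it was nearer to shAPE1#3 in 1633 of the 1904 higher genes and in 1481 of the 1853 lower genes. In all 15 of the lowest genes, SLC2A3, RNF43, NUPR1 and CPA4 among them, the shControl mean fell between both lines. Of the 15 highest genes it did so in 11 and lay beyond shAPE1#3 in 4. No such count was made over all genes tested. On the GC axis described further on, the highest minus the lowest GC group deviated by 0.95 in shControl replicate 2 after ABS. Replicates 1 and 3 were at -0.40 and -0.065. The part of that library in the position of the shControl mean was not tested.

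Among interferon-stimulated genes, 11 of 26 measured members were lower with shAPE1#3 and 15 were not called. These genes are switched on by interferon or by sensors of foreign nucleic acid and encode antiviral proteins. The median log2 change of the list was -0.50 against 0.0069 over all genes tested and 11% of all genes called lower. Without 1 library at a time, between 8 and 11 members were called lower, and 1 was called higher without shAPE1#1 replicate 1. IFIT2, which binds foreign RNA, was at 14.8, 16.0 and 16.0 CPM with shAPE1#1 and at 5.67, 6.42 and 7.60 CPM with shAPE1#3 (log2 -1.27 ± 0.14, adjusted p = 1.9e-06). Its relatives IFIT3, at 20.5, 21.2 and 21.4 CPM against 8.66, 10.3 and 10.5 CPM, and IFIT1, at 18.4, 19 and 18.3 CPM against 8.85, 9.97 and 9.74 CPM, moved with it. ISG15, a ubiquitin-like modifier, was at 155, 133 and 122 CPM against 64.2, 75.8 and 68.0 CPM. OASL and ISG20, an inhibitor of RNA virus replication and an exonuclease, changed by -0.94 and -0.72. Groups did not overlap in any of these. IFIT3, IFIT1, ISG15, ISG20 and OASL were chosen after their values were seen.

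The list did not move as a whole. MX1, an antiviral GTPase, changed by 0.10, OAS1 by -0.59 and IRF9 by 0.44, none of them called; these 3 were chosen after their values were seen. RSAD2, OAS2 and BST2 were called lower at levels near 1 CPM. RSAD2 lost its call without shAPE1#3 replicate 3 (log2 -1.20), OAS2 lost it in 4 and BST2 in 4 of 6 fits that each left out 1 library. Without ABS 11 members were lower as well. Of 10 measured genes of double-stranded RNA sensing 2 were lower and 0 higher (median -0.022), 20% called against 22.3% of all genes. IFIH1 (MDA5) was lower by a log2 change of -0.44 ± 0.11 and kept its call without any 1 library. DDX58 (RIG-I) was lower by -0.32 ± 0.11, and its call was lost in each of 6 such fits.

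The interferon-stimulated response element (ISRE), the binding site of the interferon transcription factors, has a core of GAAA, any 2 bases, and GAAA. Promoters of the 250 bases before the RefSeq start (GRCh38.p14) were found for 19 of the members, and 13 of these held the core on either strand, among them 7 of 8 called members. The same core was found in 857 of 27305 promoters of that length (3.14%). Parts of 3 of these promoters are shown because they carry the element in members that differed clearly; capitals mark matches of the core on either strand, and overlapping matches run together.
IFIT1, chr10:89392467-89392569, plus strand: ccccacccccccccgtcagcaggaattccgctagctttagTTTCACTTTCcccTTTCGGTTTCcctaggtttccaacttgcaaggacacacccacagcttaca
ISG15, chr1:1013344-1013439, plus strand: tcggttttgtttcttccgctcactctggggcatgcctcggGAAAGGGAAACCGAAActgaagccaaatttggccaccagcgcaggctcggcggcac
ISG20, chr15:88638907-88638996, plus strand: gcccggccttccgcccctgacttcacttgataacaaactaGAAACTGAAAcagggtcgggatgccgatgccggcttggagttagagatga
A match is a description of the letters, and binding was not measured.

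Of 15 measured MHC class I genes, which load and present peptides to T cells, 7 were lower, 0 higher and 8 not called (median -0.23). That is 46.7% called, against 22.3% of all genes. B2M, the invariant chain of class I molecules, was at 1009, 920 and 910 CPM with shAPE1#1 and at 534, 649 and 625 CPM with shAPE1#3 (log2 -0.68 ± 0.12, adjusted p = 4.2e-04). ERAP2, a peptide-trimming protease of the ER, changed by -0.69 ± 0.14 and PSMB8, a subunit of the immunoproteasome, by -0.44 ± 0.09, and neither group overlapped the other. The count rested on small differences: it fell to 3 without shAPE1#1 replicate 2 or shAPE1#3 replicate 3 and to 4 without shAPE1#1 replicate 1 or 3, while B2M, ERAP2 and PSMB8 kept their calls in each of these fits.

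Among targets of the integrated stress response, 12 of 23 measured members were higher with shAPE1#3, 1 was lower and 10 were not called. In this response, kinases that sense amino acid shortage, ER stress or foreign RNA slow translation, and the factor ATF4 switches on amino acid synthesis and transport. The median was 0.31, and 11.3% of all genes were called higher. With the GC correction described further on, 14 members were higher and 5 lower. VLDLR, a lipoprotein receptor, was at 44.0, 41.3 and 40.9 CPM with shAPE1#3 and at 21.4, 21.5 and 20.2 CPM with shAPE1#1 (log2 0.97 ± 0.08, adjusted p = 2.0e-08). PHGDH, which starts serine synthesis, was at 215, 217 and 210 CPM against 132, 120 and 114 CPM, and PSAT1, the next enzyme of that pathway, at 388, 397 and 404 CPM against 275, 281 and 287 CPM. TRIB3, a pseudokinase that feeds back on ATF4, was higher by 0.88 ± 0.12, DDIT3, the factor CHOP, by 0.57, and ASNS, asparagine synthetase, by 0.34. The lower member was NUPR1. PSAT1, DDIT3 and ASNS were chosen after their values were seen. Between 10 and 14 members were called higher when 1 library at a time was left out, and 11 were higher without ABS.

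The composite element to which ATF4 binds with a C/EBP partner was searched as TGATGNAAN on both strands. It was found in the upstream window of 2 of 19 members with a RefSeq promoter, ASNS and CHAC1, and in 908 of 27305 promoters (3.33%). The ASNS match, in capitals, is shown as the one member promoter in which this element faces the gene's own direction.
ASNS, chr7:97872428-97872516, minus strand: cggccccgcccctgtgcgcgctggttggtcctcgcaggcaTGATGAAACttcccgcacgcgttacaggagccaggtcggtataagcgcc

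Of 21 ER chaperones and unfolded protein response genes, 3 were higher and 3 lower (median -0.037), 28.6% called against 22.3% of all genes. Without 1 library at a time 0 to 2 were higher and 1 to 2 lower, and 0 were higher without shAPE1#1 replicate 2 or 3 or shAPE1#3 replicate 1. Among targets of NF-kB, the factor of inflammatory signaling, 8 were higher and 2 lower of 21 (median 0.34), 47.6% called against 22.3% of all genes. TNF was at 4.94, 4.09 and 4.45 CPM with shAPE1#3 against 2.88, 2.62 and 2.77 CPM (log2 0.67 ± 0.15, adjusted p = 2.5e-03), and TNFAIP2 at 176, 149 and 152 CPM against 91.9, 102 and 99.5 CPM. The number higher fell to 4 without shAPE1#1 replicate 3 or shAPE1#3 replicate 1 and to 5 without shAPE1#1 replicate 2, and TNF and TNFAIP2 were kept in each.

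**Figure D2:**
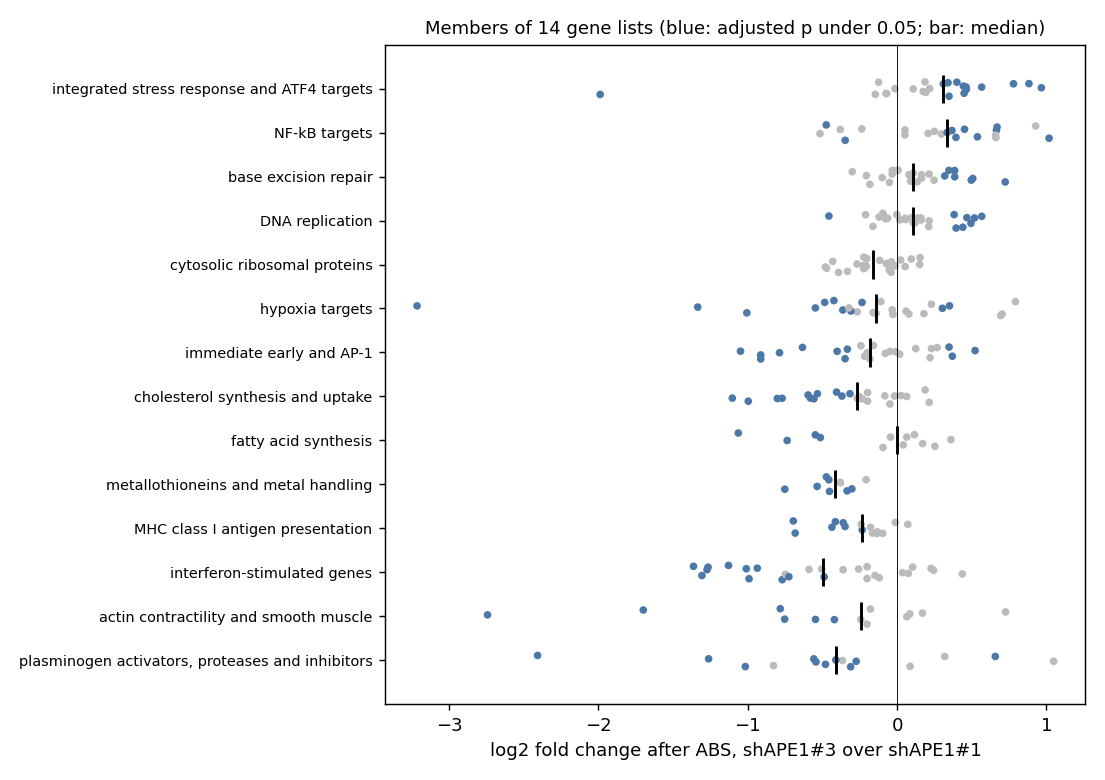
Log2 fold change after ABS (x axis, shAPE1#3 over shAPE1#1) of each measured member of 14 gene lists, 1 row per list; blue points passed an adjusted p under 0.05, grey points did not, and bars are medians. Members of the interferon, cholesterol, metal and protease lists lie mostly left of 0 and those of the integrated stress response right of 0, with SLC2A3 at -3.21 the farthest point.

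Of 23 measured genes of cholesterol synthesis and uptake 11 were lower with shAPE1#3 after ABS and 12 were not called. Cells make cholesterol by a chain of enzymes under the sterol-sensing factor SREBP2. The median change was -0.27, against 11% of all genes called lower, and 8 to 12 members were lower when 1 library at a time was left out. Without ABS 5 members were lower and 0 higher (median -0.21). IDI1, an isomerase of the pathway, was at 90.0, 81.3 and 88.2 CPM with shAPE1#1 and at 41.7, 47.7 and 43.4 CPM with shAPE1#3, a 1.99-fold difference. INSIG1, which holds SREBP in the ER, changed by -0.77 ± 0.10, MSMO1, a sterol demethylase, by -1.10 ± 0.17, and HMGCS1, an early enzyme chosen after its values were seen, by -0.60. Without ABS IDI1 changed by -0.25 (adjusted p = 0.22) and INSIG1 by -0.14 (adjusted p = 0.41). The test of the difference between both settings did not pass for IDI1 (-0.75, adjusted p = 0.17) or INSIG1 (-0.63, adjusted p = 0.13). The sterol regulatory element, searched as TCACNCCAC on both strands, stood in 1 of 17 member promoters, in 0 of the 7 called members among them, and in 0.908% of all promoters.

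Of 12 genes of fatty acid synthesis 4 were lower and 0 higher (median -0.00070), 33.3% called against 22.3% of all genes. SCD, the desaturase that makes oleate, was at 813, 957 and 1005 CPM with shAPE1#1 and at 613, 518 and 572 CPM with shAPE1#3, and ELOVL6, an elongase, changed by -1.06 ± 0.13. ACSS2, which makes acetyl-CoA from acetate, changed by -0.51 and ELOVL5 by -0.55. The same 4 genes were called lower without ABS, where the list also had 4 lower members.

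Among targets of hypoxia-inducible factors 9 were lower and 2 higher of 25 (median -0.14), against 11% and 11.3% of all genes, led by SLC2A3. PDK1, which keeps pyruvate out of mitochondria, was at 19.3, 21.8 and 23.8 CPM with shAPE1#1 and at 11.3, 11.4 and 10.3 CPM with shAPE1#3 (log2 -1.01 ± 0.14). LDHA, lactate dehydrogenase A, was at 2259, 2289 and 2333 CPM against 1457, 1670 and 1685 CPM, and ANKRD37 changed by -1.33 ± 0.23. Without shAPE1#1 replicate 1 or shAPE1#3 replicate 1 there were 8 and 7 lower members, and 6 without any of the other 4 libraries. Of 10 genes for metallothioneins and metal handling 7 were lower and 0 higher (median -0.42), 70% called against 22.3% of all genes. Without shAPE1#3 replicate 1, 4 were lower. FTH1, the ferritin heavy chain that stores iron, was at 2460, 2128 and 2075 CPM against 1473, 1258 and 1317 CPM (log2 -0.75 ± 0.11, adjusted p = 4.6e-05). SLC39A10, a zinc importer, changed by -0.53 ± 0.13.

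Early growth factor response genes, among which AP-1 is the factor that APE1 is known to reduce, had 8 lower and 3 higher of 25 measured members (median -0.18), against 11% and 11.3% of all genes. The number higher was 0 without shAPE1#1 replicate 2 and 1 without shAPE1#1 replicate 3, shAPE1#3 replicate 1 or shAPE1#3 replicate 3, while 7 to 9 were lower in each such fit. With the GC correction 13 were lower and 3 higher. KLF4, a zinc finger factor of epithelial differentiation, was at 38.8, 34.8 and 37.2 CPM with shAPE1#1 and at 19, 18 and 17.8 CPM with shAPE1#3 (log2 -1.05 ± 0.10, adjusted p = 2.2e-07). DUSP5, a phosphatase of nuclear ERK, was at 74.9, 71.8 and 72.3 CPM against 37.8, 39.6 and 41.4 CPM. The orphan receptors NR4A3 and NR4A2 changed by -0.91 ± 0.18 and -0.79 ± 0.17. Without ABS, 2 members were lower and 4 higher, and KLF4 changed by -0.49 (adjusted p = 2.8e-03). In the feedback genes of MAP kinase signaling 4 were lower and 1 higher of 13, 38.5% called against 22.3% of all genes. The number higher was 0 without shAPE1#1 replicate 2 or 3 or shAPE1#3 replicate 3. PHLDA1 changed by -0.73 ± 0.07, SPRY2 by -0.77 ± 0.11 and ETV5 by -0.55 ± 0.09. HBEGF, a ligand of the EGF receptor, was at 57.9, 55.1 and 59.7 CPM against 34.2, 33.6 and 34.8 CPM, and changed by -0.13 without ABS (adjusted p = 0.41). The direct test of a change with ABS did not pass for HBEGF.

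Base excision repair, the pathway of APE1, had 7 higher and 0 lower of 25 measured members (28% called, against 22.3% of all genes), including APEX1. POLL, a gap-filling polymerase, was at 33.2, 30.2 and 33.0 CPM with shAPE1#3 and at 22.7, 23.3 and 20.8 CPM with shAPE1#1 (log2 0.50 ± 0.13, adjusted p = 9.2e-03). MUTYH, a glycosylase for adenine opposite oxidized guanine, changed by 0.51 ± 0.13 and lost its call without shAPE1#1 replicate 3 (log2 0.41, adjusted p = 0.051). The count fell to 3 in that same fit. In DNA replication 7 of 28 were higher and 1 lower (median 0.11), 28.6% called against 22.3% of all genes, and 13 were higher with the GC correction. Members called higher included the helicase subunits MCM2 at 0.57 ± 0.11 and MCM7 at 1021, 1019 and 1013 CPM against 729, 723 and 707 CPM. Of 27 genes of homologous recombination and Fanconi anemia 5 were higher and 0 lower, against 11.3% and 11% of all genes. Calls in both directions together made 18.5%, against 22.3% of all genes. The higher members were led by RAD51D (0.60 ± 0.09) and XRCC3 (0.59 ± 0.14). The number higher was 2 without shAPE1#1 replicate 1, shAPE1#3 replicate 1 or shAPE1#3 replicate 3, and 3 without shAPE1#1 replicate 2.

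Targets of p53 split, with 6 higher and 7 lower of 24 (median -0.11), 54.2% called against 22.3% of all genes. CDKN1A, the cell cycle inhibitor p21, was at 121, 120 and 114 CPM with shAPE1#3 and at 199, 185 and 201 CPM with shAPE1#1 (log2 -0.75 ± 0.09), and the death receptor FAS changed by -0.96 ± 0.19. In the other direction BBC3, the BH3-only protein PUMA, changed by 0.84 ± 0.15 and BTG2, an antiproliferative gene, by 0.71 ± 0.10.

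Of 15 plasminogen activators, proteases and inhibitors 9 were lower and 1 higher (median -0.41), 66.7% called against 22.3% of all genes. Between 7 and 9 stayed lower when 1 library at a time was left out. With PLAT, the protease inhibitor SERPINE2 (log2 -1.02 ± 0.08) was lower, as was TIMP3, an inhibitor of metalloproteases (-1.26 ± 0.14). ADAM8, a membrane protease, was the higher one (0.66 ± 0.17). Of 13 genes of actin contractility 6 were lower and 0 higher (median -0.24, 46.2% called). CALD1, an actin-binding protein of contractile cells, was at 15.3, 19.4 and 21.3 CPM with shAPE1#1 against 4.83, 5.98 and 6.72 CPM. MYL9, a myosin light chain, changed by -0.78 ± 0.12. Of 10 simple epithelial keratins and CEACAM genes 4 were lower and 1 higher (50% called), and 2 were lower without shAPE1#1 replicate 1 or shAPE1#3 replicate 1 or 2. The higher one was KRT20, an intestinal keratin, which stayed below 0.44 CPM in each of the 6 libraries and lost its call without shAPE1#1 replicate 3. KRT8, the main keratin of simple epithelia, was at 2867, 2674 and 2642 CPM with shAPE1#1 and at 1549, 1675 and 1573 CPM with shAPE1#3. CDH1 (E-cadherin) and CLDN4, a claudin of tight junctions, changed by -0.75 ± 0.12 and -1.21 ± 0.16. GATA6, a factor of gut epithelium, was at 12.2, 11.3 and 11.3 CPM against 4.02, 5.19 and 4.64 CPM.

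Of 20 cell junction and epithelial genes 3 were higher and 4 lower, 35% called against 22.3% of all genes. The number higher was 1 without any 1 library other than shAPE1#3 replicate 2. Of 16 mesenchymal genes 1 was higher and 5 lower (37.5% called). ESRP2, an epithelial splicing factor, was higher by 0.90 ± 0.18, and so was ZEB2, a repressor of E-cadherin, by 0.93 ± 0.14. MMP2, a gelatinase, and TNC, the matrix protein tenascin C, were lower by log2 changes of -1.16 ± 0.12 and -0.97 ± 0.15. Of 18 laminins, integrins and parts of hemidesmosomes 6 were lower and 2 higher (44.4% called). The number lower was 3 without shAPE1#1 replicate 2, shAPE1#3 replicate 2 or shAPE1#3 replicate 3. It was 4 without shAPE1#1 replicate 3 and 9 without shAPE1#1 replicate 1. LAMB3, a chain of laminin-332, changed by -0.81 ± 0.12, and COL17A1, a hemidesmosome collagen, by 0.93 ± 0.20.

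KRT19 and IGFBP3 were also called lower, with a limit that the files show. In 93 genes with at least 20 CPM in every OE33 group and under 0.2 CPM in FLO1 shControl, the median level in the 6 libraries was 0.1 to 0.260% of the OE33 level, highest in shAPE1#3 replicate 3. KRT19, at 19.1, 14.2 and 11.5 CPM with shAPE1#1 and at 4.14, 3.77 and 11.2 CPM with shAPE1#3, has a mean of 10025 CPM in OE33, and 0.260% of that is 26.1 CPM. IGFBP3 was at 0.115, 0.0944 and 1.84 CPM with shAPE1#3 and at 3.99, 2.5 and 2.97 CPM with shAPE1#1, where the same share of the OE33 level is 1.57 CPM. The part of this signal in both results was not tested. KRT19 lost its call without shAPE1#1 replicate 1 (log2 -1.02) or shAPE1#3 replicate 1 (-1.02) or 2 (-0.97), and IGFBP3 without shAPE1#1 replicate 1 (-1.92) or 3 (-2.18) or shAPE1#3 replicate 1 (-1.69) or 2 (-1.62). JUP and ALDH1A3 were the other calls under 3 times that level, so 4 of 3757 calls lie under it.

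In WNT signaling 7 were lower and 5 higher of 20, 60% called against 22.3% of all genes. The number higher was 2 without shAPE1#3 replicate 3 and 3 without shAPE1#1 replicate 2 or 3 or shAPE1#3 replicate 1, and 5 to 7 were lower. The secreted inhibitor DKK1 was at 134, 130 and 125 CPM with shAPE1#1 and at 40.9, 51.8 and 46.0 CPM with shAPE1#3 (log2 -1.52 ± 0.11, adjusted p = 3.1e-09), while the intracellular inhibitor NKD1 changed by 1.71 ± 0.26 at levels up to 1.51 CPM. In NOTCH signaling 5 were higher and 2 lower of 14 (median 0.14), 50% called against 22.3% of all genes. With the GC correction described further on, 4 were higher and 3 lower (median 0.035). Members called higher included the receptors NOTCH3 (1.02 ± 0.21) and NOTCH1 (0.73 ± 0.16) and the target HEYL (0.70 ± 0.16). Among axon guidance genes 7 were lower and 4 higher of 18 (61.1% called). The plexins PLXNA1, at 249, 186 and 198 CPM against 83.8, 119 and 118 CPM, and PLXNB1 (1.15 ± 0.17) were higher, and the coreceptor NRP2 (-0.93 ± 0.12) and the ligand NTN4 (-1.49 ± 0.23) were lower. IGF2, a growth factor of fetal tissue, was at 240, 185 and 230 CPM against 96.9, 132 and 120 CPM, with its binding protein IGFBP2 at 790, 777 and 768 CPM against 555, 447 and 442 CPM.

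Of 17 measured circadian clock genes 2 were higher, 4 lower and 11 not called (median 0.11), 35.3% called against 22.3% of all genes. The activators ARNTL (-0.74 ± 0.10) and NPAS2 (-0.81 ± 0.11) were lower and the repressor PER2 was higher (0.87 ± 0.14). BHLHE41, another repressor, was lower, with -0.74 to -0.64 when 1 library at a time was left out. Of 14 complement and coagulation genes 4 were lower, 0 higher and 10 not called (28.6% called). The regulators CD59 and CD46 changed by -0.82 ± 0.09 and -0.40 ± 0.12. CD46 lost its call without shAPE1#1 replicate 2 (log2 -0.39) or 3 (-0.40) and without shAPE1#3 replicate 1 (-0.35) or 2 (-0.40). Of 23 lysosome and autophagy genes 6 were lower, 1 higher and 16 not called (30.4% called). Lysosomal NPC2, which exports cholesterol from lysosomes, and the protease CTSL changed by -0.74 ± 0.09 and -0.56 ± 0.09. Of 24 ribosomal protein genes 0 were called in the edgeR fit used throughout, and 8 had an unadjusted p under 0.05 (median -0.16). With DESeq2 1 was lower, without a filter or in a fit to the compared groups 6 were lower, and with the GC correction or without shAPE1#3 replicate 2 there were 2. Of 25 nuclear genes of oxidative phosphorylation 6 were lower and 0 higher, 24% called against 22.3% of all genes. The number lower was 1 without shAPE1#3 replicate 1 and 2 without shAPE1#1 replicate 1 or shAPE1#3 replicate 3.

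The same pair of lines was compared without ABS in 6 other libraries. There 2054 of 16868 genes differed (12.2%), 786 higher (4.66%) and 1268 lower (7.52%), 360 of them at least 2-fold (2.13%). An unadjusted p under 0.05 was found for 24.5% of the genes. In both settings 1548 genes were called, 1546 of them with 1 sign (591 higher, 955 lower) and 2 with opposite signs. These 1546 are 41.1% of the calls after ABS and 75.3% of those without. Both comparisons use the same transduced lines and share no library. Of the calls after ABS, 96.4% had the same sign of change without ABS, and across genes, which are not independent, the changes had r = 0.62. The share with the same sign over all genes tested was not computed. Changes rose with GC content in both settings, as given further on, and the part of that trend in the shared signs was not tested. Of the 15 highest and 15 lowest genes after ABS, 12 and 15 were also called without it, SLC2A3 with -2.70, PLAT with -2.83 and CYP24A1 with 2.07.

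**Figure D3:**
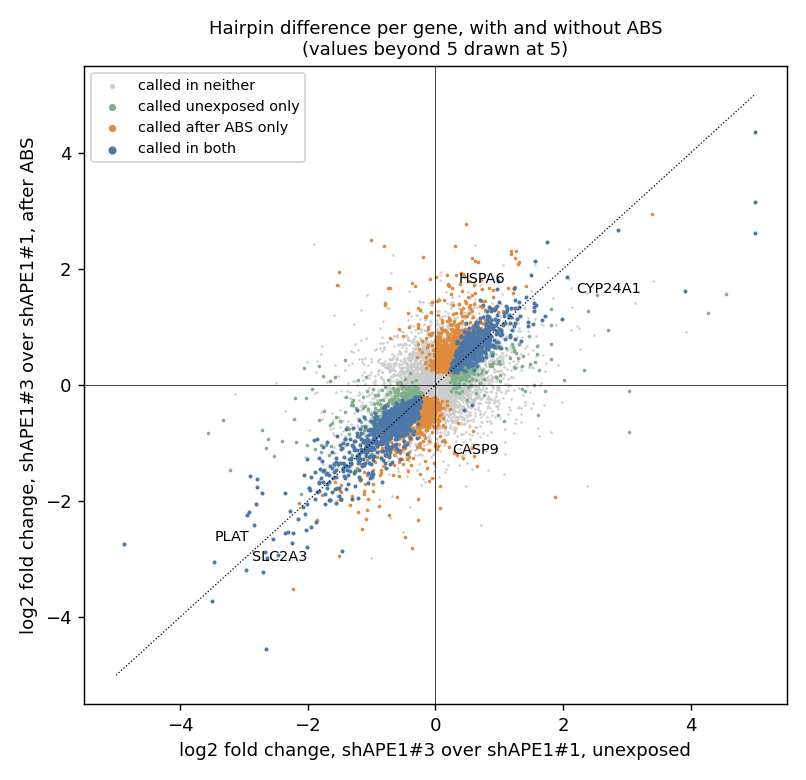
Log2 fold change of shAPE1#3 over shAPE1#1 without ABS (x axis) and after ABS (y axis) for each of 16868 genes; colours show where a gene was called and the dotted line is equality. Genes called in both settings lie near the line, HSPA6 and CASP9 lie near 0 on the x axis, and SLC2A3, PLAT and CYP24A1 are far from 0 on both.

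The change of the hairpin difference with ABS was tested directly, as the response to ABS in shAPE1#3 minus that in shAPE1#1. At an adjusted p under 0.05, 4 of 16868 genes passed (0.0237%), all lower and 1 of them at least 2-fold (0.00593%), and 899 had an unadjusted p under 0.05 (5.33%). Some other fits also gave higher genes, with 7 higher and 29 lower with DESeq2 and 6 and 31 without a filter. A fit to the compared groups gave 10 higher and 47 lower, and the GC correction described further on gave 9 and 65. PHLDA1, a feedback gene of growth factor signaling, was at 55.9, 58.8 and 60.6 CPM in unexposed shAPE1#1 and at 59.2, 61.4 and 58.2 CPM in unexposed shAPE1#3. After ABS it stood at 152, 155 and 155 CPM and at 97.3, 93.4 and 94.4 CPM, and shControl at 104, 106 and 105 CPM lay near shAPE1#3. The difference of responses was -0.74 ± 0.10 (adjusted p = 3.2e-03). CHMP1B, a subunit of the membrane-cutting ESCRT-III complex, was at 60.8, 60.5 and 63.8 CPM and at 58.2, 58.0 and 57.5 CPM without ABS, and at 187, 184 and 204 CPM and at 95.0, 109 and 98.3 CPM after ABS (-0.86 ± 0.11). In each line every library after ABS lay above every unexposed one for both genes, and the step was larger in shAPE1#1.

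CASP9, the initiator caspase of the mitochondrial death pathway, was at 8.82, 5.86 and 8.05 CPM in unexposed shAPE1#1 and at 8.83, 8.05 and 8.14 CPM in unexposed shAPE1#3. After ABS it was at 32.3, 29.1 and 30.5 CPM and at 14.9, 18 and 15.8 CPM (difference of responses -1.08 ± 0.18, adjusted p = 0.028). CSF2, the growth factor GM-CSF, was higher with shAPE1#3 before ABS, at 10.9, 10.4 and 10.5 CPM against 7.36, 6.74 and 7.03 CPM, and lower after it, at 15.5, 17.3 and 16.1 CPM against 22.7, 18.2 and 20.1 CPM (-0.93 ± 0.16, adjusted p = 0.034). The difference of CSF2 after ABS alone was -0.35 ± 0.11, and its call was lost without shAPE1#1 replicate 1 (-0.25) and without shAPE1#3 replicate 1 (-0.31) or 3 (-0.34). The calls of CASP9 and CSF2 were lost in 9 and 11 of 12 fits that each left out 1 library, with values of -1.20 to -0.92 and -1.0 to -0.84, while PHLDA1 and CHMP1B passed in each.

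**Figure D4:**
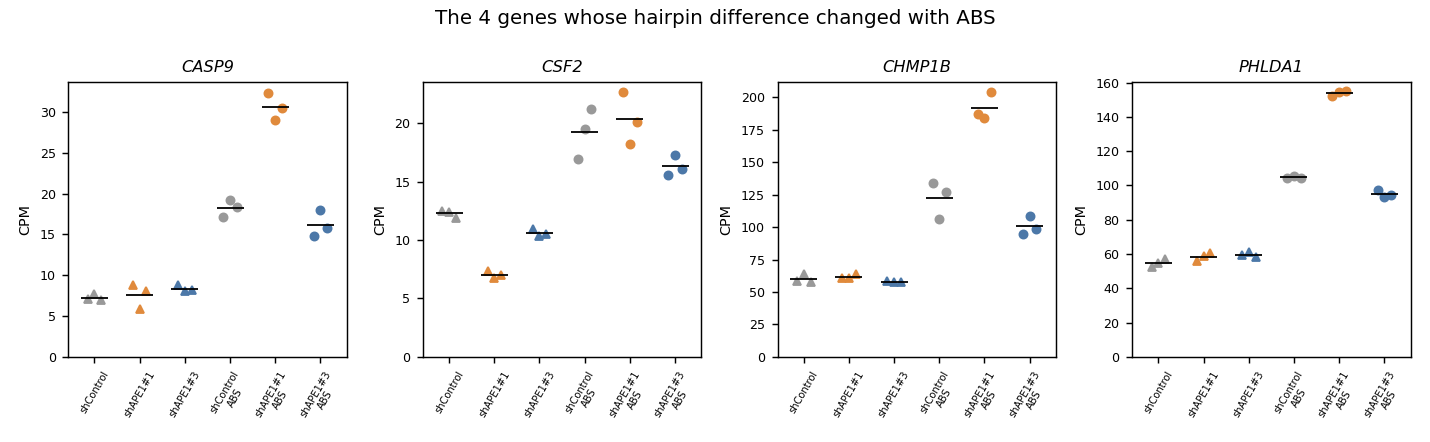
Level in CPM (y axis, from 0) of the 4 genes whose hairpin difference changed with ABS in each of the 18 FLO1 libraries, by group on the x axis; triangles are unexposed, circles are after ABS, and lines are group means. PHLDA1, CHMP1B and CASP9 start level in both knockdown lines and are highest in shAPE1#1 after ABS, while CSF2 is lower in shAPE1#1 before ABS and higher after it.

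In OE33 after ABS the lines with the same labels differed in 18 of 15540 genes (0.116%), all higher with shAPE1#3 and 7 of them at least 2-fold (0.045%). Other fits also gave lower genes, with 28 higher and 45 lower without a filter, 22 and 8 with DESeq2, and 17 and 37 without OE33 shAPE1#1 replicate 1. An unadjusted p under 0.05 was found for 800 genes (5.15%). APEX1 in OE33 was at 22.8, 27.6 and 26.1 CPM with shAPE1#1 and at 21.6, 24.7 and 20.7 CPM with shAPE1#3, and the difference did not pass the test (log2 -0.14 ± 0.08). Of the 15 highest and 15 lowest FLO1 genes, 7 and 10 were tested in OE33. The OE33 changes of the former ran from -0.065 to 0.25 and of the latter from -0.31 to 1.03, the last being STC1. The difference between the cell lines was not tested.

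The GC content of genes moved with the result. After ABS the median log2 change rose from -0.18 in the lowest of 10 GC groups to 0.25 in the highest, and without ABS from -0.047 to 0.13. The direction of the calls after ABS followed GC content too. In the lowest GC group 24 genes were called higher and 241 lower, and in the highest 395 higher and 68 lower. The shares of all genes set beside each list are not matched for GC content. The libraries differed on this axis within groups: the highest minus the lowest GC group deviated by -0.12, -0.29 and -0.41 in the 3 shAPE1#1 libraries and by 0.31, 0.13 and 0.044 in the 3 shAPE1#3 libraries. With a GC correction per library, chosen after seeing the data, 5045 genes were called, 2390 higher and 2655 lower. Of the original calls 3359 were kept with the same sign (89.4%), and of those with at least 2-fold change 510 of 534. The interferon list then had 13 lower and 0 higher members, cholesterol synthesis 15 lower and 0 higher, and the integrated stress response 14 higher and 5 lower. The part of this trend in the result was not tested further.

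**Figure D5:**
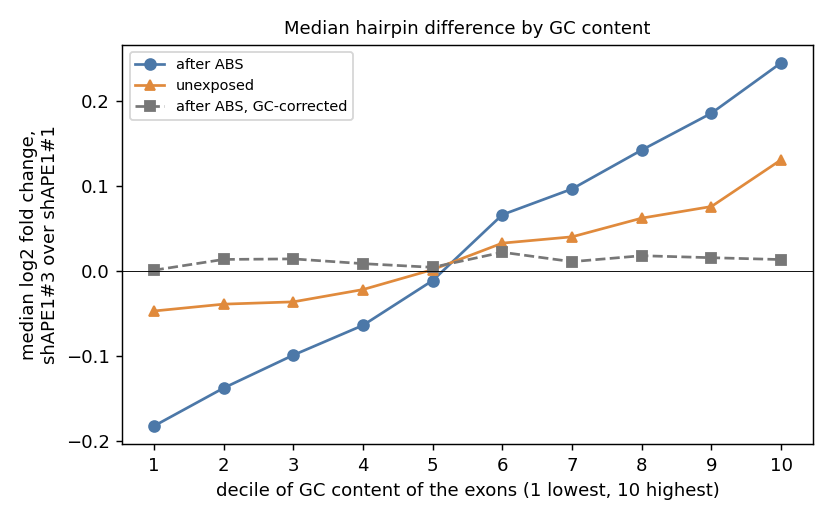
Median log2 fold change of shAPE1#3 over shAPE1#1 (y axis) in 10 groups of genes ordered by the GC content of their exons (x axis). After ABS the medians run from -0.18 to 0.25, without ABS from -0.047 to 0.13, and with the GC correction they lie near 0.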

How the data were processed

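PolyA RNA sequencing was used from 18 FLO1 and 18 OE33 libraries, 3 in each of 12 groups. The authors deposited raw read counts per Ensembl gene; the submitters' processing notes list Subread 1.5.2 with featureCounts, STAR 2.5.2b, Trimmomatic 0.36 and the build GRCh38. Which annotation release and strand setting were used, and how multimapping reads were treated, is not given in the sources used here. Symbols and coordinates came from GENCODE 29, and 0.0183% of the counts lay on other IDs.

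Each line was fitted with edgeR 4.0.16 (R 4.3.3): TMM normalization, filterByExpr, 1 coefficient per group, the robust quasi-likelihood test, and Benjamini-Hochberg adjustment over all genes, called under 0.05. SEs are log2 fold changes divided by the root of the F statistic and are approximate. CPM is per library total and is not corrected for gene length, so levels of different genes are not compared. The code was tested on simulated data. Sources do not say that replicates were separate cultures beyond calling them independent, and p-values measure the spread between these libraries. No 2 replicates of the 6 were copies (chi-square per degree of freedom 3.46 to 23.2). Pairs with replicate 1 were at 18.7 and 23.2 in shAPE1#1 and at 19.7 and 11.2 in shAPE1#3. Replicates 2 and 3 were nearer to each other, at 3.46 in shAPE1#1 and 5.75 in shAPE1#3.

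Named genes were APEX1; 15 higher and 15 lower called genes with the largest change, a mean log2 CPM of at least 1 and libraries that do not overlap; up to 6 each way for the response difference; and up to 4 called members of each of 50 gene lists, or the 2 most abundant where none was called; others are said to be chosen after their values were seen. The members and lists were chosen with earlier results of these data known. Alternatives were RLE and upper quartile scaling, DESeq2 1.42.0, no filter, a fit to the compared groups, a replicate block, leaving out each library, and a GC correction (a lowess curve of each library's deviations on gene GC content, span 0.3, as an edgeR offset) added after seeing the data. Promoter sequences are from RefSeq, GRCh38.p14.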

Additional observations from a re-analysis of the deposited data

Results flagged for a closer look

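In 4 genes the difference between shAPE1#3 and shAPE1#1 itself differed between cells after ABS and unexposed cells, by the edgeR test of the difference with Benjamini-Hochberg adjustment. The log2 values are -1.08 for CASP9, -0.93 for CSF2, -0.86 for CHMP1B and -0.74 for PHLDA1, each with a lower value of shAPE1#3 relative to shAPE1#1 after ABS. Libraries of both lines did not overlap after ABS in any of the 4.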

How the results depend on the processing

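The count of differing genes after ABS was 3308 to 5045 under the scaling, test, filter, grouping, block and GC alternatives and 2304 to 3216 when 1 library at a time was left out; none of the 203 named genes called after ABS changed its sign in any of these fits. The unexposed count of 2054 became 5428 in a fit to the compared groups and 3733 with GC correction, and 1321 to 1458 without 1 library. The response difference, 4 genes, gave 36 with DESeq2, 37 without a filter, 57 in a fit to the compared groups, 74 with GC correction and 2 with the replicate block, and 2 to 4 without 1 library. The OE33 count of 18 became 30 with DESeq2, 73 without a filter and 29 with GC correction, and 9 to 54 without 1 library; the cause was not tested. Replicate numbers did not pair the libraries after ABS (r of -0.11, -0.064 and 0.0024), and with the replicate block 3308 genes were called after ABS, 1748 unexposed and 15 in OE33. Of 203 named genes called after ABS, 150 kept the call without any 1 of the 6 libraries. Depth limits genes near 1 CPM, such as RSAD2, OAS2 and BST2.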
